A study of Mus musculus with 36 samples.

Results

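The effect of 24 h of doxycycline (dox) on gene expression was compared between 2 batches of wild-type mouse embryonic stem cells that carry a dox-inducible Mesp1 gene. In batch 1, untreated cells already held Mesp1 transcripts at 24 h. In batch 2, untreated cells of the same age held hardly any. The comparison used 10 of the 36 libraries of the series, chosen by their labels. They were 2 untreated and 2 dox libraries of batch 1, and 2 untreated and 4 dox libraries of batch 2. All 10 came from cells labelled wild type, differentiated as hanging drops in serum, and taken 24 h after a labelled differentiation stage. Both treatments carried the transgene and no library is labelled as lacking it, so that an effect of dox and an effect of Mesp1 cannot be told apart. The level of Mesp1 in untreated cells went with the batch, and these cannot be told apart either. The labels do not say whether replicates were separate cultures, and the spread that the p-values rest on may be technical.

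Mesp1 encodes a basic helix-loop-helix transcription factor that is switched on in nascent mesoderm as cells leave the primitive streak. Its descendants form most of the heart, vessels and part of the head muscles. Proteins of its class bind E-boxes, short DNA elements with the letters CANNTG, where N is any base. Streak cells that become mesoderm lose epithelial genes and gain genes of migration, among them receptors for growth factors and chemokines.

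Gene totals ran from 12325443 to 44360795 counts in the 24 h libraries of batch 1 and from 12360120 to 17484452 in those of batch 2. Levels are given as CPM (each count scaled to a common total of gene counts), and 1 count stood for 0.0225 to 0.0811 CPM. Floors given here cover counting error only, because the reads carry no molecular identifiers and several can come from the same molecule. Reads given to no single gene made up 40.8 to 49% of the deposited counts per library in batch 1 and 24 to 31% in batch 2, and their part in the results was not tested. A further 927 of the 18592 genes kept had no count in any 24 h library of batch 2, and 4 had none in batch 1. These 931 genes were not tested for a difference between the dox effects. In a bulk library, fewer cells of a type and less RNA per cell cannot be told apart.

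Mesp1 (ENSMUSG00000030544, chromosome 7, 79792241 to 79793788 on GRCm38) stood at 41.5 and 45.3 CPM in the untreated libraries of batch 1 and at 0.808 and 1.5 CPM in those of batch 2. With dox it reached 183 and 348 CPM in batch 1. In batch 2 it reached 544, 209, 42.9 and 95.2 CPM in dox replicates 1 to 4. The untreated groups of both batches lay far apart, while the dox groups overlapped, and the lowest dox library of batch 2 was near the untreated level of batch 1. Dox raised Mesp1 by 2.64 (log2) in batch 1 and by 7.63 in batch 2 (edgeR adjusted p = 0.032 and 9.35e-05). The difference between these effects was 4.99 ± 1.26 (log2 ± SE) with a 95% interval from 2.3 to 7.69, and it did not pass the threshold (edgeR adjusted p = 0.115). It passed without batch 2 dox replicate 1 (4.04) and without dox replicate 3 (5.34), but not when any other single 24 h library was left out. The counts do not separate the transgene from the endogenous gene, in untreated cells too.

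**Figure D1:**
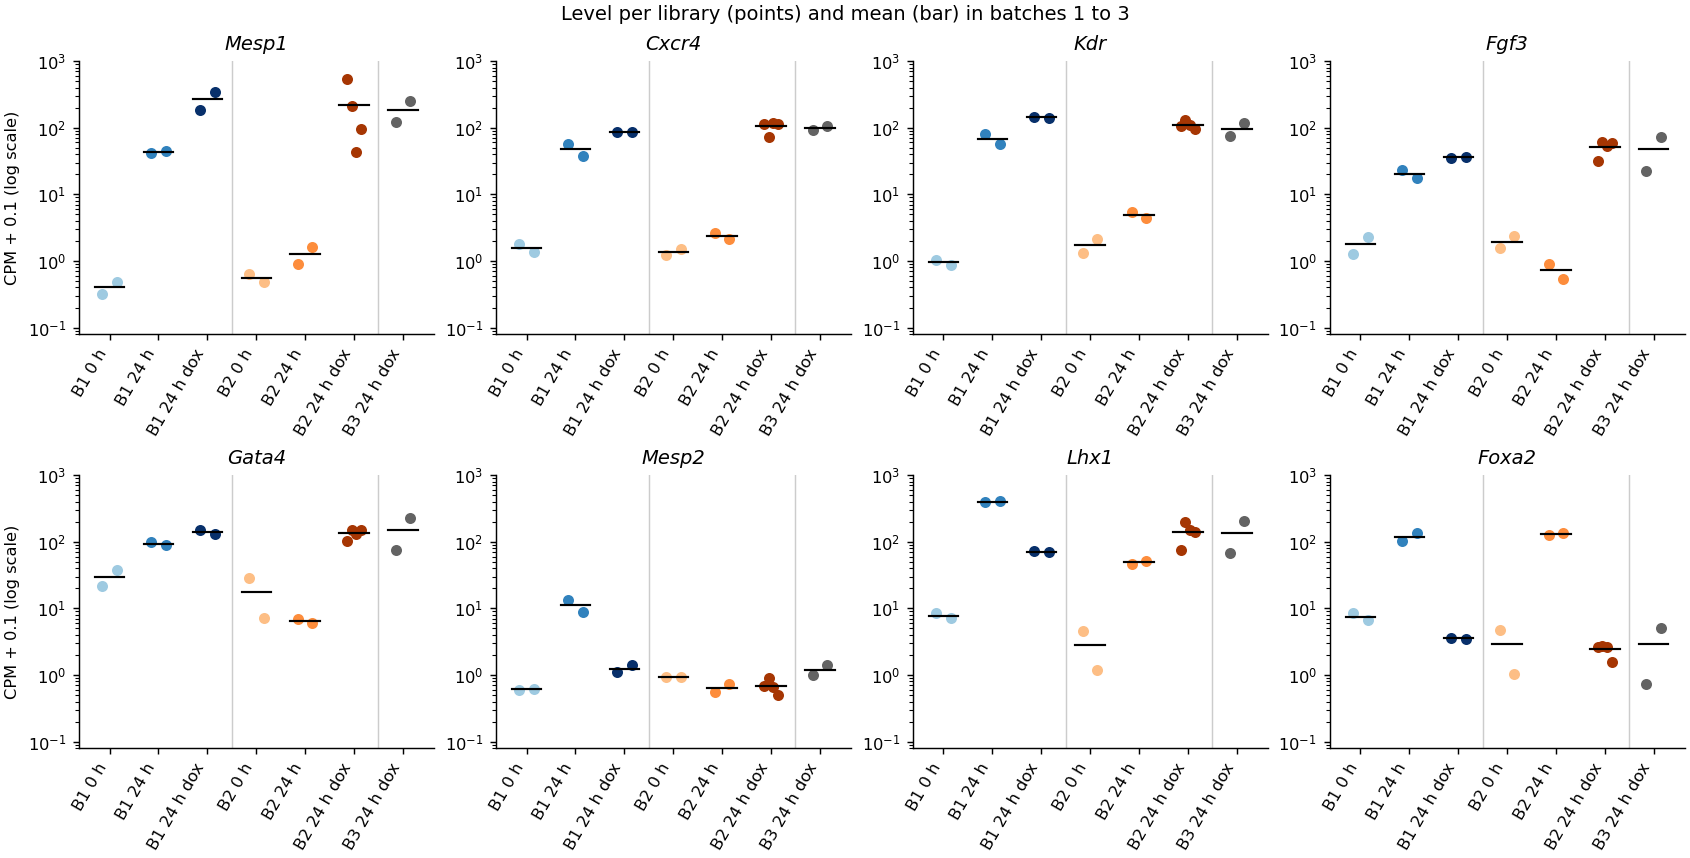
Level of 8 genes in each library (points; CPM + 0.1, log axis) with group means (bars), for 0 h, 24 h untreated and 24 h dox libraries of batch 1 (B1) and batch 2 (B2) and the dox libraries of batch 3 (B3). Mesp1, Cxcr4, Kdr, Fgf3 and Gata4 were low in untreated cells of batch 2 but at similar levels with dox, while Foxa2 fell to a similar level in both batches.

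Whether a gene responded differently to dox was tested as the dox effect in batch 2 minus the dox effect in batch 1. Genes with a more positive effect in batch 2 included several with known roles in mesoderm: Cxcr4, Kdr, Pdgfra and Aplnr among receptors, Fgf3 and Wnt5a among signals, Gata4 and Gata6 among transcription factors. All 8 were lower in both untreated libraries of batch 2 than in both of batch 1. The untreated levels enter the difference by which these genes were chosen, so that this is no separate support. By size of the difference, the genes named by rule were led by Lhx5, Clvs1 and Prss22. These sizes rest on few counts, since the untreated 24 h libraries of batch 2 held none of Lhx5 and Clvs1 and 4 of Prss22.

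edgeR called 132 of 17661 genes at an adjusted p below 0.05 (0.747%), of which 114 had a more positive effect in batch 2 (0.645% of the genes tested) and 18 a lower one (0.102%). At an unadjusted p below 0.05 there were 1279 genes (7.24%). The median log2 difference over all genes was 0.04. Of the 114, 33 rose with dox in both batches, 43 rose in batch 2 with no call in batch 1, and 16 fell in batch 1 and rose in batch 2. A further 20 fell in batch 1 with no call in batch 2, and 2 fell in both. For reference, dox was called to raise 8.34% and lower 8.82% of genes tested in batch 1, and 12.7% and 11.3% in batch 2.

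The count of 132 rested on single libraries. It was 25 without batch 2 untreated replicate 1 and 42 without untreated replicate 2. It was 47 and 58 without batch 1 untreated replicates 1 and 2, 28 and 62 without batch 1 dox replicates 1 and 2, and 242 without batch 2 dox replicate 1. Of the 46 called genes named by rule, 16 stayed called in all 20 alternative fits. They were Aplnr, Clvs1, Cxcr4, Fgf3, Gata6, Hhex, Hs3st3b1, Kcnc1, Kdr, Klhl6, Lhx1, Nxph4, Pdgfra, Prss22, Robo3 and Wnt5a.

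Other genes described here lost their call when single libraries were left out. For Flt1, Etv2 and Tbx6 this held for any library of batch 1 and either untreated library of batch 2, with edgeR adjusted p up to 0.157, 0.186 and 0.15. For Dkk1 and Fn1 it held for all but 1 of these 6 libraries (batch 1 untreated replicate 2 and batch 1 dox replicate 2), up to 0.103 and 0.114. Sparc lost it without batch 1 dox replicate 1, batch 1 untreated replicate 2 or either untreated library of batch 2, up to 0.149. Wnt2 lost it without batch 2 untreated replicate 1, at 0.114. Fgf10 and Ccn2 lost it without batch 1 dox replicate 1, batch 1 untreated replicate 1 or batch 2 untreated replicate 1, up to 0.114 and 0.0631. Aifm2 lost it without batch 1 dox replicate 2, either untreated library of batch 1 or batch 2 untreated replicate 1, up to 0.125. Lfng, Id1, Hopx and Lhx5 lost it in most of these fits and in some without a batch 2 dox library, up to 0.279, 0.318, 0.212 and 0.323. Kcnk3 lost it without any library except batch 2 dox replicate 1, up to 0.23.

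**Figure D2:**
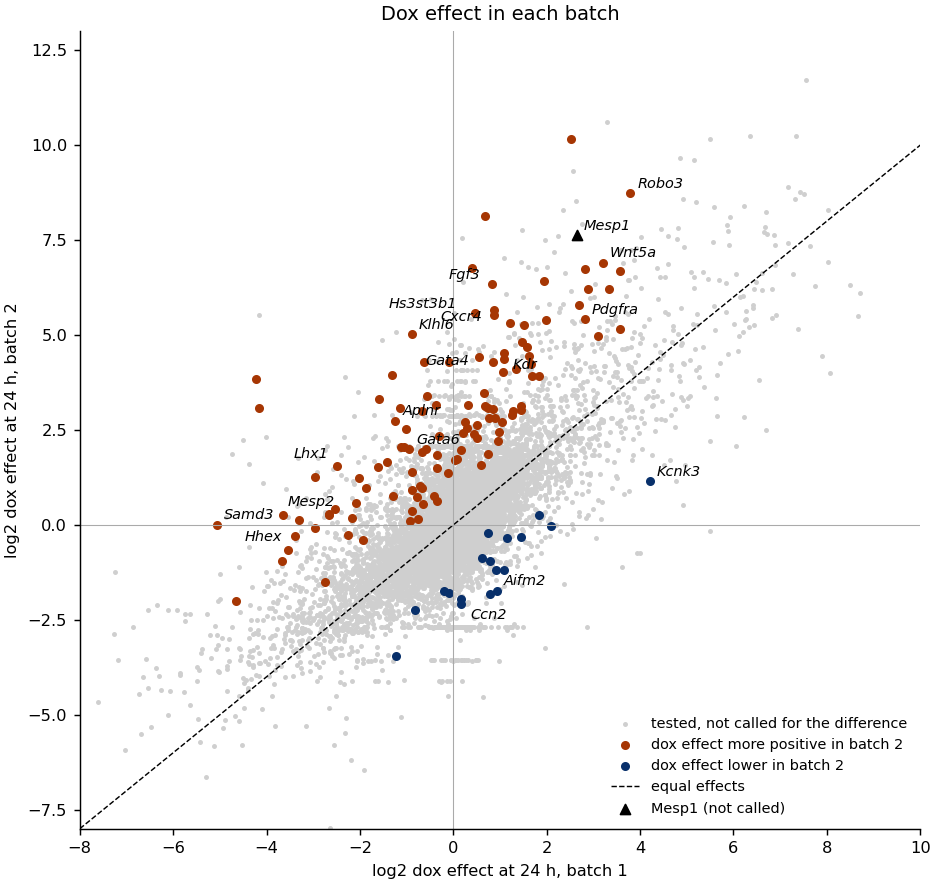
Log2 dox effect at 24 h in batch 1 (x axis) and batch 2 (y axis) for the genes tested. Brown points are the 114 genes with a more positive effect in batch 2, blue points the 18 with a lower one, and the triangle is Mesp1; 4 genes lie outside the axes. Brown points lie above the dashed line of equal effects, blue points below it.

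The 114 genes were mostly low in untreated cells of batch 2 and higher in those of batch 1. Their median level, as log2(group mean CPM + 0.5), was 4.44 in untreated cells of batch 1 and 1.73 in untreated cells of batch 2. With dox it was 4.54 in batch 1, 4.56 in batch 2 and 4.75 in the 2 dox libraries of batch 3, another wild-type set at 24 h. At 0 h the medians were 1.80 in batch 1 and 1.28 in batch 2. These values describe genes chosen for their difference, and they are given with no test. The 18 genes with a lower effect went from 3.15 to 4.16 in batch 1 and from 3.04 to 2.32 in batch 2.

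**Figure D3:**
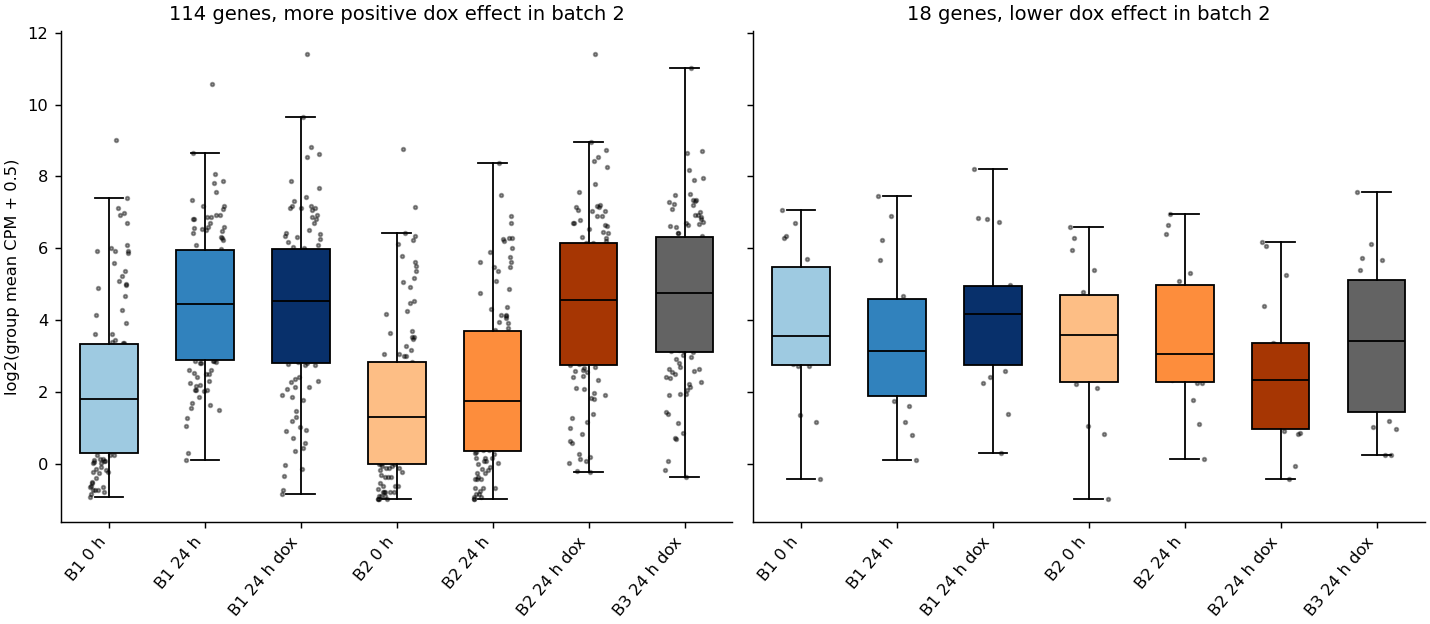
Levels, as log2(group mean CPM + 0.5), of the 114 (left) and 18 (right) called genes in each group; boxes give medians and quartiles, points the genes. The left panel shows a low median in untreated batch 2 cells (1.73) beside similar medians with dox (4.54 and 4.56).

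Hs3st3b1, Klhl6, Fgf3 and Cxcr4 had the smallest adjusted p, the last 3 tied. Their promoters (RefSeq, GRCm38.p6, 250 bases before to 50 after the start of transcription, written 5' to 3' along the gene) are shown because these genes had the strongest statistical support for a difference. Hs3st3b1 lies at chr11:63922235-63922534 on the minus strand, Klhl6 at chr16:19983000-19983299 on the minus strand, Fgf3 at chr7:144838362-144838661 on the plus strand and Cxcr4 at chr1:128592250-128592549 on the minus strand. Capitals mark E-boxes, with the letters CANNTG, which read alike on both strands.
Hs3st3b1: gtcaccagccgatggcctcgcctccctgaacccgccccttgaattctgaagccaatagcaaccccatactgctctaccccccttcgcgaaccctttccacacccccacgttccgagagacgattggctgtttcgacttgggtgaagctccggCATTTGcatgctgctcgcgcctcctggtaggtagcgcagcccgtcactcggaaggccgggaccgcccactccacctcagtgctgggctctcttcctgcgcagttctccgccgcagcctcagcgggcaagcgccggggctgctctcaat
Klhl6: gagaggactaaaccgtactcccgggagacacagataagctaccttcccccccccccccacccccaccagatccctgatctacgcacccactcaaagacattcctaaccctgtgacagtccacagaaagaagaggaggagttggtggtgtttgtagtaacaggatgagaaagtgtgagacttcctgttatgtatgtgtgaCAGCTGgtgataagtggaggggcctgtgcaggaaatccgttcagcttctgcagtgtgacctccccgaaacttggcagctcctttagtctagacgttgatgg
Fgf3: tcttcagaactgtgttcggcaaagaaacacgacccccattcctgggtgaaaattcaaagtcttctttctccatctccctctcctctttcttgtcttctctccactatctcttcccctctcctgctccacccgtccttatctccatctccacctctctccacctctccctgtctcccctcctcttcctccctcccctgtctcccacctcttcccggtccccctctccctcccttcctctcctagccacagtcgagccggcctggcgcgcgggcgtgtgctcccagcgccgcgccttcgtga
Cxcr4: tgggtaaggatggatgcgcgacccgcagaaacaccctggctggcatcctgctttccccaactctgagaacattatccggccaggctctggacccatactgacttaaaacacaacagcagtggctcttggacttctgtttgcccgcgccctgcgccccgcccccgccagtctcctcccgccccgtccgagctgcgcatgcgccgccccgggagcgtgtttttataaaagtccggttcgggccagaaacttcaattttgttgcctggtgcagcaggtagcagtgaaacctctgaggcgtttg
The windows of Hs3st3b1 and Klhl6 held 1 such match each and those of Fgf3 and Cxcr4 none. The start used for Fgf3 lay 529 bases from its gene start in GENCODE, so that its whole window lay within that gene. For the other genes shown the distance was 6 to 12 bases. Promoters were found for 12019 tested genes, of which 63.9% held at least 1 match. Among 74 of the 114 genes with a promoter in the table the share was 60.8%, and among 11 of the 18 genes it was 81.8%. The form CAAATG or its reverse complement was in 8.59%, 10.8% and 9.09% in the same order. A match is a description of the letters and says nothing of binding.

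Among receptors, Cxcr4, which binds the chemokine CXCL12 and guides migrating cells, stood at 56.7 and 37.3 CPM in untreated cells of batch 1 and at 2.54 and 2.07 in batch 2. With dox it was 85.8 and 86 CPM in batch 1 and 114, 72.7, 117 and 113 in batch 2. All dox libraries were above all untreated ones, and the untreated groups did not overlap. The dox effect was 0.88 ± 0.25 in batch 1 and 5.52 ± 0.32 in batch 2, a difference of 4.64 ± 0.39 (log2 ± SE, edgeR adjusted p = 4.83e-05). In batch 1 at 12 h of dox it had already gone to 42.3 and 67.1 CPM, against 5.22 and 3.87 without dox.

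Kdr, the VEGF receptor that marks vascular and cardiac mesoderm, stood at 79.5 and 56.5 CPM untreated in batch 1 and at 5.37 and 4.33 in batch 2. Dox took it to 145 and 142 CPM in batch 1 and to 107, 131, 109 and 94.2 in batch 2. The difference between the effects was 3.45 ± 0.43 (edgeR adjusted p = 0.00128). Pdgfra, a receptor for platelet-derived growth factor that marks paraxial and cardiac mesoderm, had 124 and 108 CPM untreated in batch 1 and 11 and 12.6 in batch 2. With dox it had 840 and 787 in batch 1 and 469, 436, 557 and 522 in batch 2, so that the dox level was higher in batch 1. Its effects differed by 2.61 ± 0.33 (edgeR adjusted p = 0.00141).

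Aplnr, the apelin receptor of migrating mesoderm, fell in batch 1 and rose in batch 2 to a shared level. Its untreated levels were 112 and 110 CPM in batch 1 and 7.96 and 8.65 in batch 2. With dox they were 51.1 and 43.5 in batch 1 and 51.3, 54.2, 64.9 and 47.9 in batch 2, so that the dox libraries of both batches overlapped. The effects were -1.24 and 2.74, a difference of 3.98 ± 0.45 (edgeR adjusted p = 7e-04). Flt1, a VEGF receptor that can act as a decoy, fell in batch 1 from 97.1 and 88.8 CPM to 14.8 and 14.5. In batch 2 it stood at 56.9 and 60.8 CPM untreated and at 26.7, 84.1, 100 and 72.2 with dox, with overlap and no call (0.29, edgeR adjusted p = 0.601). The difference was 2.96 ± 0.54 (edgeR adjusted p = 0.0183). Robo3, a receptor of axon guidance, and Klhl6, an adaptor of ubiquitin ligases, were also among the most different, by 4.94 ± 0.63 and 5.91 ± 0.52 (edgeR adjusted p = 0.00141 and 4.83e-05).

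Of the 16 genes of chemokine and receptor tyrosine kinase signals, 4 had a more positive effect and none a lower one, against 0.645% and 0.102% of all genes. Of 15 endothelial genes, 3 had a more positive effect. Etv2, the transcription factor that starts the blood vessel programme, rose in batch 2 by 2.29 (edgeR adjusted p = 6.38e-06) and by 0.51 in batch 1, which was not called (0.212).

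Among signals, Fgf3, an FGF ligand of early mesoderm, had 23.2 and 17.6 CPM untreated in batch 1 and 0.808 and 0.439 in batch 2. With dox it had 35.4 and 36.5 in batch 1 and 31.5, 60, 52.4 and 58.7 in batch 2. The effects differed by 5.52 ± 0.49 (edgeR adjusted p = 4.83e-05). Wnt5a, a ligand of non-canonical Wnt signalling that acts in axis elongation, rose in both batches. It went from 28.6 and 23.1 CPM to 205 and 266 in batch 1, and from 1.67 and 1.5 to 193, 151, 200 and 206 in batch 2. Its effects were 3.20 and 6.90, a difference of 3.70 ± 0.43 (edgeR adjusted p = 0.000719). Wnt2, a ligand of heart and lung mesoderm, differed by 3.92 ± 0.61 (edgeR adjusted p = 0.00801).

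Dkk1, a secreted Wnt antagonist, fell in batch 1 from 55.9 and 49.2 CPM to 16.6 and 12.3, and rose in batch 2 from 5.89 and 5.2 to 12.3, 12.1, 8.35 and 10. The groups did not overlap in either batch. Its effects of -1.86 and 0.97 differed by 2.83 ± 0.48 (edgeR adjusted p = 0.0115). Fgf10, Tbx6, Lfng and Id1, all with known roles in mesoderm signalling or segmentation, differed by 2.44, 2.96, 1.61 and 1.66. Hs3st3b1, an enzyme that adds sulphate groups to heparan sulphate, stood at 32 and 25.4 CPM untreated in batch 1 and at 0.635 and 0.878 in batch 2. With dox it was 41.8 and 37.4 in batch 1 and 40.5, 29.3, 39.8 and 33.3 in batch 2. It had the smallest adjusted p of all genes (5.12 ± 0.30, edgeR adjusted p = 8.79e-07), and the range of its dox levels overlapped between batches. Of 18 Wnt genes 5, and of 18 FGF genes 4, had a more positive effect, with none lower. Over all genes 0.645% had a more positive effect and 0.102% a lower one. The median differences of the Wnt and FGF lists were 1.36 and 1.06.

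Among transcription factors, Gata4, which acts in heart and endoderm, had 100 and 88 CPM untreated in batch 1 and 6.81 and 5.96 in batch 2. With dox it had 149 and 129 in batch 1 and 104, 149, 132 and 150 in batch 2. Its effects were 0.56 and 4.41, a difference of 3.85 ± 0.56 (edgeR adjusted p = 0.00442). Without batch 2 untreated replicate 1 the call was lost at an adjusted p of 0.0511. Gata6, a related factor, fell in batch 1 from 55.2 and 57.9 CPM to 34.8 and 24.5, and rose in batch 2 from 4.62 and 6.21 to 19.7, 28.1, 20.5 and 16.2. The difference was 2.93 ± 0.41 (edgeR adjusted p = 0.00306).

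Genes of visceral and extraembryonic endoderm, where both Gata genes are also active, summed to 1170 to 1200 CPM in untreated cells of batch 1 and 368 to 462 in batch 2. With dox they summed to 668 to 1090 and 284 to 594. None of the 15 tested was called for the difference, whose median was 1.30, and their part in the Gata results was not tested. Among 18 cardiac progenitor regulators 3 had a more positive effect and 1 a lower one, against 0.645% and 0.102% of all genes. The lower one was Hopx, a homeodomain protein of cardiac precursors, which fell in both batches, by 1.22 and 3.46 (difference -2.24 ± 0.46, edgeR adjusted p = 0.0365). Shared exon bases made up 27.2% of Hopx, so that reads of an overlapping gene could enter its counts.

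Lhx1 and Mesp2 were high in untreated cells of batch 1 and lower there with dox. Lhx1, a factor of the organizer and axial mesoderm, stood at 389 and 414 CPM untreated and 71.6 and 71 with dox in batch 1. In batch 2 it stood at 47.1 and 50.6 untreated and at 75.5, 200, 152 and 138 with dox. Its effects of -2.49 and 1.56 differed by 4.05 ± 0.52 (edgeR adjusted p = 0.00141). Mesp2 (ENSMUSG00000030543, chromosome 7, 79810727 to 79813439), the neighbour of Mesp1 in the genome and a factor of somite segmentation, had 13.3 and 8.86 CPM untreated in batch 1 and 0.992 and 1.3 with dox. In batch 2 it had 0.462 and 0.627 CPM untreated and 0.587, 0.809, 0.557 and 0.4 with dox. This was 18 counts untreated and 33 with dox, so that a fall like that of batch 1 could hardly be seen there. The difference was 3.43 ± 0.52 (edgeR adjusted p = 0.00632), and it was lost without batch 1 dox replicate 1 or batch 2 untreated replicate 1 (0.07 and 0.074).

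Hhex, a factor of anterior endoderm and of early vessels, was called to fall in batch 1, with no call in batch 2 (edgeR adjusted p = 0.542). It went from 21.4 and 26.7 CPM to 2.73 and 1.78 there, and from 7.44 and 7.02 to 3.59, 6.96, 8.42 and 4.58 in batch 2. The effects differed by 3.11 ± 0.46 (edgeR adjusted p = 0.0049). Of 11 definitive endoderm genes 3 had a more positive effect (Cxcr4, Hhex and Gata6). Of 19 streak and organizer genes 2 did (Lhx1 and Tbx6), and of 18 paraxial and presomitic mesoderm genes 4 did. Over all genes the share was 0.645%. The lists share members, among them Cxcr4, Kdr, Gata6, Wnt2 and Tbx6, so that the counts of different lists are not separate.

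T and Eomes were on in untreated cells of both batches. T (brachyury), which marks the streak, stood at 447 and 422 CPM untreated in batch 1 and at 154 and 247 in batch 2. Eomes, a factor of streak mesoderm and endoderm, stood at 536 and 563 CPM and at 524 and 616. Relative to 0 h, the untreated courses of T and Eomes differed between batches by 0.34 ± 0.96 and 1.34 ± 0.43 (log2 ± SE, edgeR adjusted p = 0.948 and 0.369). With dox T was 9.81 and 7.38 CPM in batch 1 and 8.07, 90.9, 28.5 and 28.3 in batch 2. Its effects of -5.65 and -2.34 differed by 3.31 with a 95% interval from 1.41 to 5.20, and the difference was not called (edgeR adjusted p = 0.155). Pou5f1, which marks pluripotent cells, stood at 562 and 707 CPM untreated in batch 1 and 447 and 482 in batch 2. Untreated cells of both batches thus held this marker. Tdgf1, another marker chosen for this purpose, stood at 786 and 741 CPM untreated in batch 1 and at 658 and 751 in batch 2. With dox it was 133 and 104 in batch 1 and 148, 537, 430 and 411 in batch 2. Since T and Eomes were on in the same untreated libraries, these markers do not settle the cell type. Over the 19 streak and organizer genes the median difference was 2.03.

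The comparison of the untreated courses had 35 calls of 17537 genes (0.2%), 25 of them lower in batch 2. Of the 114 genes, 21 of the 113 tested were among these lower calls, and their median was -1.83. The courses share the untreated libraries with the difference between dox effects, and the counts are not independent. From 0 h to 24 h with dox the batches differed for 31 of 17626 genes (0.176%), and 5 of the 114 were called higher in batch 2 (median 0.60). At 0 h itself, 18% of genes differed between batches.

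The dox effect at 12 h in batch 1 was compared within the 12 h libraries, which do not enter the 24 h levels. They were part of the same fit and its estimate of spread, and same-numbered libraries of batch 1 deviated together, so that the 12 h and 24 h values are not independent. Of the 114 genes, 59 rose and 2 fell at 12 h, against 3.85% and 2.75% of all genes. The 114 were chosen by a more positive dox effect in batch 2, where 92 of them were called to rise with dox. More rises at 12 h than among all genes are thus no separate support. The median effect of the 114 was 1.2 at 12 h and 0.05 at 24 h in batch 1, and 2.70 at 24 h in batch 2. Fgf3 rose at 12 h from 1.61 and 1.66 CPM to 66.9 and 86.9, an effect of 5.58 (edgeR adjusted p = 4.38e-07), and Hs3st3b1 by 2.76 (1.26e-06). Of the 18 genes with a lower effect in batch 2, 1 rose and 4 fell at 12 h, against the same shares.

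The mesenchymal list had the most calls of any, with 6 of 16 genes more positive in batch 2, against 0.645% of all genes. Pdgfra, Fn1 and Sparc had the smallest adjusted p of these. Fn1, which encodes the matrix protein fibronectin, had 347 and 319 CPM untreated in batch 2 and rose by 3.05 (edgeR adjusted p = 3.54e-06), against 0.85 in batch 1, which was not called (0.0592). Sparc, a matrix protein of mesenchyme, rose by 1.86 and 0.74 and differed by 1.11 ± 0.20 (edgeR adjusted p = 0.017). Of 18 epithelial genes, 15 fell in batch 1 and 16 in batch 2, against 8.82% and 11.3% of all genes. None of the 18 was called for the difference. With 0.747% of all genes called, a list of this size would hold none in most cases, and the lists were not tested against each other. Cdh1, the epithelial cadherin, fell by 3.09 and 2.55, and the difference of 0.53 had a 95% interval from -0.68 to 1.74. For Pou5f1, a pluripotency factor, the difference was 0.30, with an interval from -0.39 to 1.00. The primed epiblast (17 tested), early Hox (9) and proliferation (16) lists had no call either. A missed threshold does not show equal effects, since the interval for Foxc2, a forkhead factor of somites, ran from -1.16 to 9.49.

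**Figure D4:**
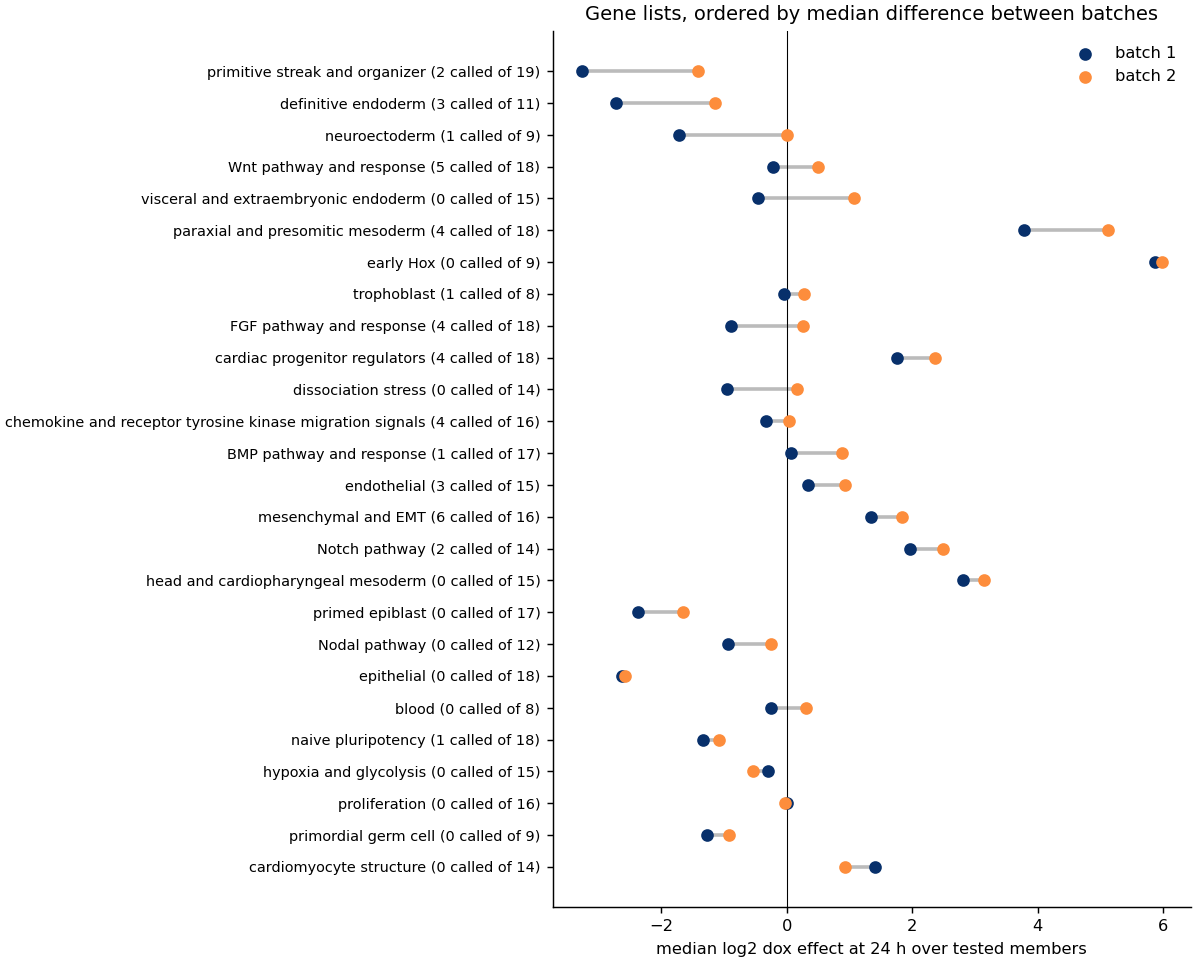
Median log2 dox effect at 24 h in batch 1 (dark blue) and batch 2 (orange) over the tested members of each gene list, ordered by the median difference; labels give the genes called for the difference. The medians of epithelial genes lie together, at -2.63 and -2.57, while those of streak genes lie apart, at -3.26 and -1.41.

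Genes with a lower effect in batch 2 were fewer, and of the lists only that of cardiac progenitor regulators held a call among them. Kcnk3, a potassium channel, rose in batch 1 from 0.604 and 0.535 CPM to 13.7 and 7.79. In batch 2 it went from 0.577 and 0.627 to 2.27, 0.809, 1.18 and 1.03, with no call (1.15, edgeR adjusted p = 0.0708). The difference was -3.05 ± 0.62 (edgeR adjusted p = 0.0412). Ccn2, a matrix-associated target of the YAP pathway, stayed near 20.1 to 25 CPM in batch 1 and fell in batch 2 from 24.8 and 25.5 to 4.77, 8.33, 5.64 and 4.52 (difference -2.26 ± 0.36, edgeR adjusted p = 0.00843). Shared exon bases made up 23.2% of Ccn2. Aifm2, an oxidoreductase, stood at 16.3 and 16.5 CPM untreated in batch 1 and 28.5 and 33.7 with dox. In batch 2 it fell from 4.9 and 3.64 CPM to 0.587, 1.05, 2.02 and 1.37, while the dox libraries of batch 3 had 19.5 and 17 (difference -2.65 ± 0.46, edgeR adjusted p = 0.0133).

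Clvs1, a lipid-binding protein of vesicles, set batch 2 apart in another way. It had no count in the untreated libraries of batch 2 at 24 h, and none at 0 h either. In batch 1 it had 10.4 and 7.5 CPM at 0 h. At 24 h batch 1 had 13.8 and 11.8 CPM untreated and 21.5 and 19.4 with dox, and the dox libraries of batch 3 had 11 and 12.6. With dox batch 2 reached only 1.39, 1.05, 1.74 and 1.83 CPM, or 89 counts, which is at least 17.1-fold above a floor of 3 counts over the untreated group. Shared exon bases made up 36.3% of Clvs1. Lhx5, a LIM homeodomain factor of the forebrain, also had no count in untreated batch 2 cells at 24 h. With dox it had 348 counts in batch 2, at least 66.7-fold above the same floor. In batch 1 it went from 0.435 and 0.714 CPM to 2.25 and 4.22.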

How the data were processed

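Polyadenylated RNA was sequenced, and the authors deposited raw read counts per Ensembl gene for each library. The tools, per the submitters' processing notes, were STAR, Trimmomatic, DESeq2 and HTSeq and the build was mm10, with no role or order. Tool versions, the annotation and strand use were not given in the sources used here. Reads of overlapping genes on opposite strands therefore cannot be told apart. Symbols and coordinates were taken from GENCODE on GRCm38, which matched 49412 of 49671 identifiers.

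The 18 libraries of batches 1 and 2 (12325443 to 46525179 gene counts) were fitted together as group means with edgeR 4.0.16 in R 4.3.3 (filterByExpr, TMM scaling, robust quasi-likelihood F test, 2-sided, 10 residual degrees of freedom). Benjamini-Hochberg adjustment ran over all genes tested in a comparison, and genes were called below 0.05. The fit was tested on simulated data, in which 100 genes were changed 2-fold and 100 were changed 4-fold in batch 2 dox libraries. It recovered 23 of the 2-fold and 73 of the 4-fold changes, and 5 of its 101 calls were on unchanged genes. Recovery of changes placed in untreated libraries was not tested. How far these values hold for the measured libraries was not tested either. Rows that name no gene were left out. Batch 3 libraries give levels only.

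The members, lists and rules were chosen with earlier results of these data known. Genes named were Mesp1 and Mesp2; the 10 called protein-coding genes with a mean of at least 1 CPM and the most positive, and the 10 with the most negative, difference; up to 3 called genes of each of 26 lists; up to 6 genes called in opposite directions; and the 3 smallest adjusted p. A called gene that this rule names is counted but not reported here. T, Eomes, Cdh1, Pou5f1 and Foxc2, as list members, were named after their values were seen. Same-numbered libraries deviated together in batch 1 (10 pairs of groups, correlations 0.109 to 0.852). In batch 2 (3 pairs, -0.116 to 0.406) only 1 pair, 0 h with 24 h dox, passed a correlation of 0.1. Dox with untreated at 24 h stood at -0.0661. In batch 1, replicate 1 held more gene counts than replicate 2 in each group at 12 h and 24 h, but fewer at 0 h. Pairing and depth cannot be told apart there. Numbers were taken to pair libraries in batch 1 only. A block for these batch 1 pairs gave 176 calls, with all 132 kept. Alternatives were other scaling, filters, tools and samples, including DESeq2 1.42.0.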

Additional observations from a re-analysis of the deposited data

Results flagged for a closer look

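The dox effects of named genes differed between batches by the test of the difference itself, and the log2 differences (batch 2 minus batch 1) were as follows. Among receptors and migration genes they were 4.64 for Cxcr4, 3.45 for Kdr, 2.61 for Pdgfra, 3.98 for Aplnr, 2.96 for Flt1, 4.94 for Robo3 and 4.93 for Plxna4. Among signals and their modifiers they were 5.52 for Fgf3, 2.44 for Fgf10, 3.92 for Wnt2, 3.70 for Wnt5a, 2.83 for Dkk1, 3.31 for Dll1, 1.61 for Lfng, 5.12 for Hs3st3b1 and 4.90 for Nxph4. Among transcription factors they were 3.43 for Mesp2, 7.63 for Lhx5, 4.05 for Lhx1, 2.82 for Tbx3, 2.96 for Tbx6, 2.93 for Gata6, 3.85 for Gata4, 4.11 for Gata3, 1.78 for Etv2, 1.24 for Etv4, 3.11 for Hhex, 1.66 for Id1 and 4.78 for Prdm6. For other genes they were 2.20 for Fn1, 1.11 for Sparc, 7.46 for Clvs1, 5.91 for Klhl6, 5.07 for Samd3, 4.23 for Kcnc1 and 7.26 for Prss22.

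The differences were negative for Kcnk3 (-3.05), Aifm2 (-2.65), Ccbe1 (-2.62), Aldh1b1 (-2.29), Ccn2 (-2.26), Hopx (-2.24), Mid1ip1 (-2.12), Ap3b2 (-2.09) and Frem1 (-1.77). Several of these rested on the fit used. Of 20 alternatives, the call was lost in 13 for Mid1ip1, 12 for Ccbe1, 11 for Frem1, 10 for Aldh1b1 and 9 for Ap3b2. Fitted values of Lhx5 and Clvs1 depend on the prior count, since untreated batch 2 cells at 24 h had no count of either. No bound is given for their differences.

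For 3 of the 71 genes named by rule, a single library stood apart from the others among the 4 dox libraries of batch 2. They were Isl1 in dox replicate 1 at 6.38 CPM, Cxcr4 in dox replicate 2 at 72.7 CPM, and Afp in dox replicate 1 at 6.23 CPM. For a single gene chance gives about 1 in 20. The 71 genes share the same 4 libraries and are not independent, so that their count cannot be set against chance.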

How the results depend on the processing

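No result reversed its direction in the alternatives run. A replicate block over both batches shared 129 of the 132 calls, though its numbers were not taken to pair libraries in batch 2. The 132 calls became 455 with this block, 258 with DESeq2 (202 more positive and 56 lower in batch 2) and 549 with no filter on low counts. They ranged from 25 to 242 when 1 library was left out. The dox effect in batch 1, 3189 calls, ranged from 1932 to 3667 over these fits, and that in batch 2, 4236 calls, from 2280 to 4244. The untreated course difference, 35 calls, was 133 with DESeq2, 487 with no filter, 92 with batch 2 dox replicates 3 and 4 alone, 182 with the replicate block, and 6 to 66 with 1 library left out. The induced course difference, 31 calls, was 138 with DESeq2, 443 with no filter, 9 with batch 2 dox replicates 1 and 2 alone, 215 with replicates 3 and 4 alone, and 8 to 232 with 1 library left out. The difference for Mesp1 passed the threshold with DESeq2 (4.99), no filter (5.01), batch 2 dox replicates 1 and 2 alone (5.76), replicates 3 and 4 alone (3.28) and the replicate block (5.77), and ranged from 4.04 to 5.62 with 1 library left out. With no filter its SE shrank to 0.29, and that fit is read no further. The cause of these changes was not tested. Where 1 library was left in a group, it was assumed to vary like the other groups. The 10 libraries at 24 h alone gave 93 calls for the difference between dox effects, of which 84 were among the 132. In that fit 15 of the 46 named called genes lost their call. It gives no course difference, and fits of each batch on its own give no difference between batches. Of the 46 named called genes, 18 lost their call in at least 5 of the 10 fits that left out a library.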
